A study of Homo sapiens with 36 samples.

Results

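The colony stimulating factor genes CSF1, CSF2 and CSF3 were followed in A549 cells during chronic exposure to the inflammatory cytokine IL-1β and after its withdrawal. The members were the rows whose Ensembl identifiers belong to these symbols, which are 3 of the 63677 genes counted. A549 is an established human lung adenocarcinoma line. The exposed cells received 1 ng/ml IL-1β and were harvested on days 6, 15 and 21, or were first exposed for 21 days and then kept without it for a further 6, 15 or 30 days, and untreated cells were harvested beside them at each of the 6 time points. Each of the 12 groups had 3 libraries labelled as biological replicates, giving 36 in all, and all groups shared the parental line, RPMI medium with serum and regular passaging. Because a single line was used, the p-values below measure the spread between replicate libraries of that line.

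Colony stimulating factors are secreted glycoproteins that control the production, survival and activation of myeloid cells. CSF1, also called M-CSF, signals through the receptor tyrosine kinase CSF1R and maintains monocytes and macrophages. CSF2, or GM-CSF, signals through a heterodimer of CSF2RA and CSF2RB, and in the lung it is needed for the maturation of alveolar macrophages. CSF3, or G-CSF, signals through CSF3R and drives neutrophil production. Epithelial and stromal cells make the 3 factors when IL-1 or TNF activates NF-κB, and their mRNAs, like those of other cytokines, can carry AU-rich elements in the 3′ UTR, to which proteins that govern mRNA decay bind.

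The 3 genes differ in size and layout. In GENCODE annotation on GRCh37, CSF1 (ENSG00000184371) lies on chromosome 1 at chr1:110452864-110473614, with 9 transcripts and 5238 bases of merged exons. CSF2 (ENSG00000164400) lies at chr5:131409482-131411863 with 1 transcript of 788 bases, and CSF3 (ENSG00000108342) at chr17:38171614-38174066 with 9 transcripts and 2220 bases of merged exons. All 3 are on the plus strand and no other annotated gene overlaps their bodies. The pentamer ATTTA, the core of AU-rich elements, occurred 4 times in the 2154 bases of the longest annotated 3′ UTR of CSF1, 8 times in the 318 bases of that of CSF2 and 7 times in the 854 bases of that of CSF3. Per kilobase this came to 1.86 for CSF1, 25.2 for CSF2 and 8.20 for CSF3. The median was 1.64 over 18165 genes with 3′ UTRs of at least 100 bases. Of these genes, 0.0220% were as dense as CSF2, 1.72% as dense as CSF3 and 46.1% as dense as CSF1. The number of copies, which also grows with UTR length, was compared over 18883 genes with an annotated 3′ UTR. Of those, 19.3% held as many as CSF2, 22.5% as many as CSF3 and 36.7% as many as CSF1. The densest 30 bases of each 3′ UTR are shown, because they are where the genes differ most visibly, with ATTTA in capitals. They come from GRCh37 at chr1:110473533-110473562, chr5:131411765-131411794 and chr17:38173228-38173257, plus strand.
CSF1: tttatataaagtcATTTAaatatctATTTA
CSF2: ttttaaaatATTTATTTATTTATTTATTTA
CSF3: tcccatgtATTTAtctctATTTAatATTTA
The CSF2 window held 5 overlapping copies, the CSF3 window 3 and the CSF1 window 2.

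The CSF2 promoter is a textbook target of NF-κB. The 250 bases before its RefSeq start are shown because the gene was called higher under IL-1β. Their position, on the plus strand of GRCh38.p14, is chr5:132073539-132073788, a different build from the gene positions above.
CSF2 promoter: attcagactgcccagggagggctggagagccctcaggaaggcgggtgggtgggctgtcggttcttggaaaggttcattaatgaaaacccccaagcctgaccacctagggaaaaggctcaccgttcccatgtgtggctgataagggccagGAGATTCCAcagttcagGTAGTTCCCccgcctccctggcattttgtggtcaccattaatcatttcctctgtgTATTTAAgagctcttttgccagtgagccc
The capitals mark, in order, GAGATTCCA, the core letters of the cytokine element CK-1, then the reverse complement of GGGAACTAC, the letters of the gene's NF-κB site, and TATTTAA, which resembles a TATA box. They start 101, 84 and 29 bases before the transcript start and do not overlap. On either strand, GAGATTCCA occurred in 71 of 35116 promoter windows of this length (0.202%), GGGAACTAC in 79 (0.225%) and TATTTAA in 1463 (4.17%). Such matches describe the sequence only. Of the 3 genes, 1 was in the promoter table used here, and the promoters of CSF1 and CSF3 are not shown.

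The libraries held 9116032 to 23570026 counts on genes, with a median of 15902700. Levels are given as CPM, which are counts per 1000000 of the library, after TMM scaling, and a library with 3 or fewer counts of a gene was taken as at the floor of detection, which covers counting error only. In 11 libraries 11.8% to 24.6% of counts fell on mitochondrial genes, against 5.61% to 7.75% in the other 25. Of these 11, 6 were control and 5 exposed, 8 had replicate number 2 and 8 were from the withdrawal phase. Epithelial KRT8 (538 to 4818 CPM) and KRT18 (265 to 2514 CPM) were high in every library, while the epithelial markers EPCAM (at most 1.63 CPM), KRT19 and SFTPC were low or near 0. CDH1, the epithelial cadherin, spanned 27.5 to 319 CPM. The summed epithelial list moved with the condition, at 4291 to 6835 CPM in the controls of days 6, 15 and 21 and 899 to 1741 CPM in the cells then under IL-1β, and at the last harvest it was 3615 to 7624 against 3075 to 5142 CPM. The summed fibroblast list was low, at most 1.89 CPM in the controls of days 6, 15 and 21 and 2.10 to 3.37 CPM under IL-1β. At the last harvest it ran the other way, at 1.77 to 4.14 CPM in controls and 1.29 to 1.87 CPM in exposed cells. The part of these shifts in the results for the CSF genes was not tested. Of the leukocyte markers, PTPRC, the pan-leukocyte gene, had at most 3 counts in any library and CD3E had 0, while CD14 (1.67 to 16.4 CPM) and ITGAM (3.44 to 14.6 CPM) were detected throughout. The summed leukocyte list spanned 9.14 to 19.6 CPM in control and 7.04 to 30.1 CPM in exposed libraries. As these are bulk samples, more cells expressing a gene and more RNA per cell cannot be told apart.

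CSF1 was expressed in untreated A549 cells and was higher in exposed than in control cells at every time point, including all 3 after withdrawal. Its response was 3.74-fold at day 6 of exposure, then 2.47-fold (day 15) and 2.26-fold (day 21), and 2.06-fold, 2.01-fold and 2.2-fold at days 6, 15 and 30 after withdrawal. All 18 exposed libraries (118 to 409 CPM, median 164 CPM) lay above all 18 control libraries (47.7 to 109 CPM, median 72.2 CPM), an arrangement that 0.209% of the 19180 genes tested had.

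At day 6 the exposed replicates 1, 2 and 3 of CSF1 read 409, 399.6 and 178 CPM and the controls 109, 107 and 47.7 CPM. Replicate 3 was the lowest in both conditions, so that the spread of each group was wide while the ratios of same-numbered cultures were close, at 3.76, 3.73 and 3.74. These ratios are descriptive, since the numbers were not shown to pair the cultures. At day 15 exposed cells had 183, 186 and 153 CPM and controls 72.3, 69.4 and 70.0 CPM. At day 21 the exposed values were 139.8, 142 and 218 CPM against 74.9, 70.9 and 75.1 CPM, with replicate 3 now the highest. The groups did not overlap at any of these days, which follows from the separation of all exposed and control libraries given above. The share of genes with such a separation at a single day was not counted. The day 15 and day 21 controls were tightly grouped. In the quasi-likelihood test of edgeR, with p-values adjusted by Benjamini-Hochberg, CSF1 passed the thresholds of an adjusted p under 0.05 and a fold over 2 at day 6 (log2 fold change 1.90, SE 0.27, adjusted p = 1.60e-05), where 1.52% of tested genes were called higher. It also passed both at day 15 (1.30, SE 0.26, edgeR adjusted p = 0.0013, background 1.94%) and at day 21 (1.18, SE 0.26, edgeR adjusted p = 0.0034, background 2.19%). The call at day 6 held in all 11 alternative analyses. When the 11 libraries of high mitochondrial share were omitted, the log2 fold changes at the 3 days were 2.10, 1.39 and 1.30, all past both thresholds. With replicate 1 of every group left out, the edgeR adjusted p rose to 0.119 at day 15 and 0.118 at day 21, and without replicate 3 the day 21 log2 fold change was 0.95, under the fold threshold.

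After withdrawal, CSF1 in previously exposed cells had means of 153 ± 18.9 CPM at day 6, 154 ± 32.1 CPM at day 15 and 146 ± 10.8 CPM at day 30 (SD, n = 3). At day 6 after withdrawal the exposed replicates held 164, 131 and 163 CPM against 81.1, 68.8 and 72.7 CPM in controls. At day 15 after withdrawal they held 176, 118 and 170.2 CPM against 90.2, 72.1 and 68.7 CPM. At day 30, the last harvest, they held 152, 152 and 133 CPM against 75.3, 51.9 and 71.4 CPM. The groups were apart at each of these times as well, which also follows from the separation of all exposed and control libraries. No share of genes was counted for a single time. The lowest exposed value, replicate 2 at day 15 after withdrawal, and the lowest control value of this phase, replicate 2 at day 30, both came from libraries with a high mitochondrial share. Outside those 11 libraries, 13 exposed libraries spanned 133 to 409 CPM and 12 controls 47.7 to 109 CPM, and among the 11, 5 exposed libraries spanned 118 to 153 CPM and 6 controls 51.9 to 107 CPM.

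The CSF1 difference passed both thresholds by edgeR at day 6 (log2 fold change 1.04, SE 0.26, adjusted p = 0.0213), day 15 (1.00, SE 0.26, adjusted p = 0.0455) and day 30 (1.14, SE 0.26, adjusted p = 0.0206) after withdrawal. The shares of tested genes called higher at these times were 1.08%, 0.594% and 0.433%, and 27 genes (0.141%) were called higher at all 6 time points, CSF1 among them. These 3 calls lay at the edge of the thresholds, being kept in 4, 3 and 6 of 11 alternative analyses, while the log2 fold change stayed between 0.85 and 1.23 in all of them. Without the libraries of high mitochondrial share the log2 fold changes were 1.19, 0.95 and 0.97, from fewer samples. The only control then left was replicate 3 at day 6 and replicate 1 at day 15, so no p-value is given there. For day 30 the edgeR adjusted p was 0.184.

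**Figure D1:**
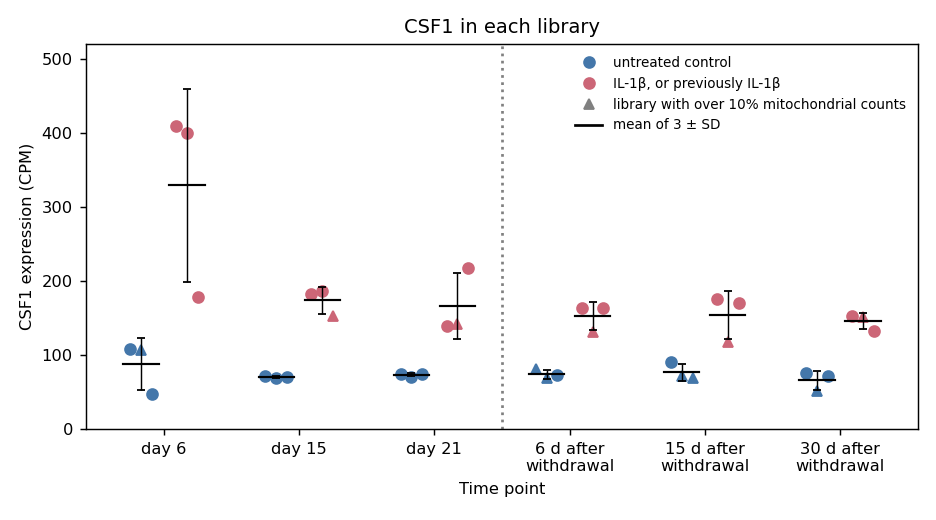
CSF1 expression in CPM (y axis, linear from 0) in each of the 36 libraries by time point (x axis), with untreated controls in blue and cells with present or past IL-1β in red. Bars are the mean of 3 libraries and whiskers the SD, triangles mark libraries with over 10% mitochondrial counts, and the dotted line separates exposure from withdrawal. The lowest red point (118 CPM) sits above the highest blue point (109 CPM).

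The size of the CSF1 response was compared between time points in the same model. It was smaller at day 21 than at day 6 by 0.73 on the log2 scale (SE 0.36, 95% interval -1.47 to 0.02), with an edgeR p of 0.0556 before adjustment and 1.00 after, and 0.0104% of genes were called in that contrast. At day 6 after withdrawal the response differed from that at day 21 by -0.14 (95% interval -0.88 to 0.61), and at day 30 after withdrawal by -0.04 (-0.79 to 0.70), where 0.141% and 0.730% of genes were called. Between days 6 and 30 after withdrawal the difference was 0.09 (-0.65 to 0.84, with 0.00521% of genes called). None of the 4 was called, and each of the last 3 intervals runs from a decrease to an increase. Untreated cells of the last and the first harvest differed in CSF1 by -0.41 (SE 0.26, edgeR adjusted p = 1.00), a value that depended on single libraries, being -0.083 without replicate 2 and -0.75 without replicate 3, and it was not called in either.

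Exposed cells alone were then compared across time, in contrasts chosen after the data were seen. CSF1 had a mean of 329 ± 131 CPM (SD, n = 3) at day 6 and 167 ± 44.3 CPM at day 21, a log2 difference of -0.98 (SE 0.26) that missed the threshold (edgeR adjusted p = 0.0694, with 0.448% of tested genes called lower) and passed without replicate 3 (log2 difference -1.54, edgeR adjusted p = 0.000229). From day 21 to days 6 and 30 after withdrawal it changed by -0.13 and -0.19 (SE 0.26 each, edgeR adjusted p = 0.985 and 0.847). The means of the 6 exposed groups ran in the order day 6, day 15, day 21, then days 15, 6 and 30 after withdrawal, from 329 down to 146 CPM, and neighbours in that order overlapped. The 6 control groups ran from 87.9 to 66.2 CPM with no gap between neighbours, and the only gap in the whole order was that between exposed and control groups.

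**Figure D2:**
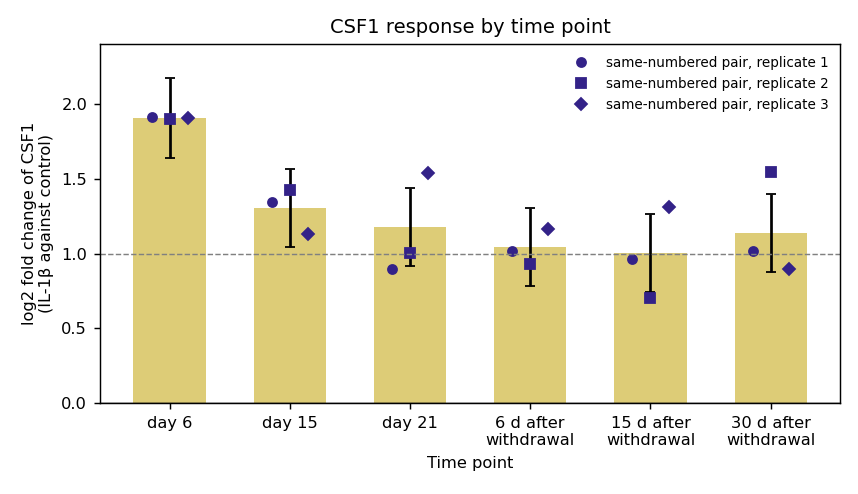
The log2 fold change of CSF1, IL-1β against control (y axis), at the 6 time points (x axis), where bars are the fitted values, whiskers ± 1 SE and symbols the ratios of same-numbered libraries. The bar is highest at day 6 (1.90) and the other 5 lie between 1.00 and 1.30, at or above the dashed line at the fold threshold of 2.

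CSF2 and CSF3 were at the floor in all 18 control libraries, rose in the cells under IL-1β at days 6, 15 and 21, and were back near the floor by day 6 after withdrawal. Both passed the filter on low counts only because of the groups under IL-1β, so their passing is not a result. Each was called higher at all 3 days of exposure, as was CSF1, and 1.08% of tested genes were called so.

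In untreated cells CSF2 had 8 counts over 18 libraries, with 0 in 11 of them and at most 2 in any. Under IL-1β, replicates 1, 2 and 3 held 16, 15 and 40 counts at day 6. They held 26, 17 and 3 at day 15, and 47, 31 and 32 at day 21. The lowest of these, replicate 3 at day 15, was itself at the floor and was a library with a high mitochondrial share. The means were 1.38 ± 0.490, 0.867 ± 0.507 and 2.06 ± 0.659 CPM (SD, n = 3), and every one of the 9 libraries lay above the 9 controls of the same days, as for 2.55% of tested genes. Summed over replicates, the counts were 71 against 0 at day 6. With the control set at 3 counts summed over its 3 libraries, the floor used for folds, this would be 21.2-fold. The 95% counting interval of the ratio of 71 to 0 starts lower, at 16.8, so 21.2 is no lower bound. They were 46 against 1 at day 15, a ratio of 54.6 with a 95% counting interval of 9.32 to 2202, and 110 against 4 at day 21, a ratio of 29 (11 to 108). CSF2 passed both thresholds by edgeR at day 6 (adjusted p = 4.14e-05), day 15 (adjusted p = 0.000207) and day 21 (adjusted p = 1.63e-05). Without replicate 1 the day 15 value was 0.0507, and with the libraries of high mitochondrial share left out the 3 values were 7.02e-05, 4.92e-05 and 8.76e-06. Within exposure the level at day 21 did not differ detectably from that at day 6 (log2 difference 0.54, SE 0.43, edgeR adjusted p = 0.894).

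After withdrawal CSF2 had 2, 1 and 2 counts at day 6, 1, 0 and 3 at day 15, and 0, 0 and 0 at day 30. All 9 of these libraries were at the floor. The sums were 5 against 0 control counts at day 6, with a lower 95% counting limit of 0.884 for the ratio, 4 against 1 at day 15 (ratio 2.76, interval 0.273 to 136) and 0 against 2 at day 30. The edgeR adjusted p were 0.309, 0.877 and 0.718. Compared with exposed cells at day 21, CSF2 was lower at day 6 after withdrawal (log2 difference -4.08, SE 0.62, edgeR adjusted p = 0.000808), where 0.287% of tested genes were called lower. It was also lower at day 30, where its 3 libraries held 0 counts (edgeR adjusted p = 5.51e-06, background 1.67%). Without replicate 1 the first of these had an edgeR adjusted p of 0.352.

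CSF3 had 3 counts over all 18 control libraries, with 0 in 16 of them. Under IL-1β it reached 160, 130 and 136 counts at day 6. The day 15 counts were 83, 64 and 9, and those of day 21 were 51, 26 and 143. In CPM these were 9.05 ± 2.24, 2.94 ± 1.75 and 3.53 ± 2.07 (SD, n = 3). The day 6 libraries (6.62 to 11 CPM) lay above all those of day 21 (1.95 to 5.87 CPM) and day 15 (0.931 to 4.16 CPM). The share of all genes with such a separation between days was not counted. The lowest library of days 15 and 21 each came from those with a high mitochondrial share. The sums were 426 against 0 counts at day 6 and 220 against 0 at day 21. Again with 3 counts over the 3 control libraries as the floor, these would be 127-fold and 77.4-fold. The 95% counting intervals of the observed ratios start lower, at 103 and 62.4. At day 15 the sums were 156 against 2, a ratio of 92.5 with a 95% counting interval of 25.2 to 771. By edgeR the adjusted p were 3.89e-06, 8.39e-05 and 1.48e-05 at days 6, 15 and 21, and these calls held in all 11 alternative analyses, with 2.25e-06, 7.93e-06 and 2.27e-06 when the libraries of high mitochondrial share were left out. Although the day 6 and day 21 libraries did not overlap, the difference between them did not pass after adjustment (log2 difference -1.33, SE 0.50, edgeR adjusted p = 0.363). Without replicate 3, whose day 21 library was the highest, the difference was -2.13 with an edgeR adjusted p of 0.0281.

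After withdrawal CSF3 held 0, 0 and 4 counts at day 6, 2, 1 and 1 at day 15, and 2, 0 and 1 at day 30, so 8 of 9 libraries were at the floor. Against controls the sums were 4 to 0, 4 to 1 and 3 to 0, and the edgeR adjusted p were 0.715, 0.888 and 0.768. Relative to day 21 of exposure CSF3 was lower at day 6 after withdrawal (log2 difference -5.21, SE 0.80, edgeR adjusted p = 0.00114) and at day 30 (-5.76, SE 0.83, edgeR adjusted p = 0.00012). The first of these had an edgeR adjusted p of 0.301 without replicate 1. A remaining difference from control of a few counts, for CSF2 or CSF3, was not detectable at this depth. The test of a change in response between time points could not be fitted usefully for CSF3, whose standard errors were too large to read. For CSF2 each such contrast included a group with 0 counts, so the fitted size is no bound and is not given. By edgeR none of the 4 was called, with an adjusted p of 0.147 for day 30 after withdrawal against day 21 and 1.00 for the others, while DESeq2's Wald test gave an adjusted p of 0.0181 for the first.

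**Figure D3:**
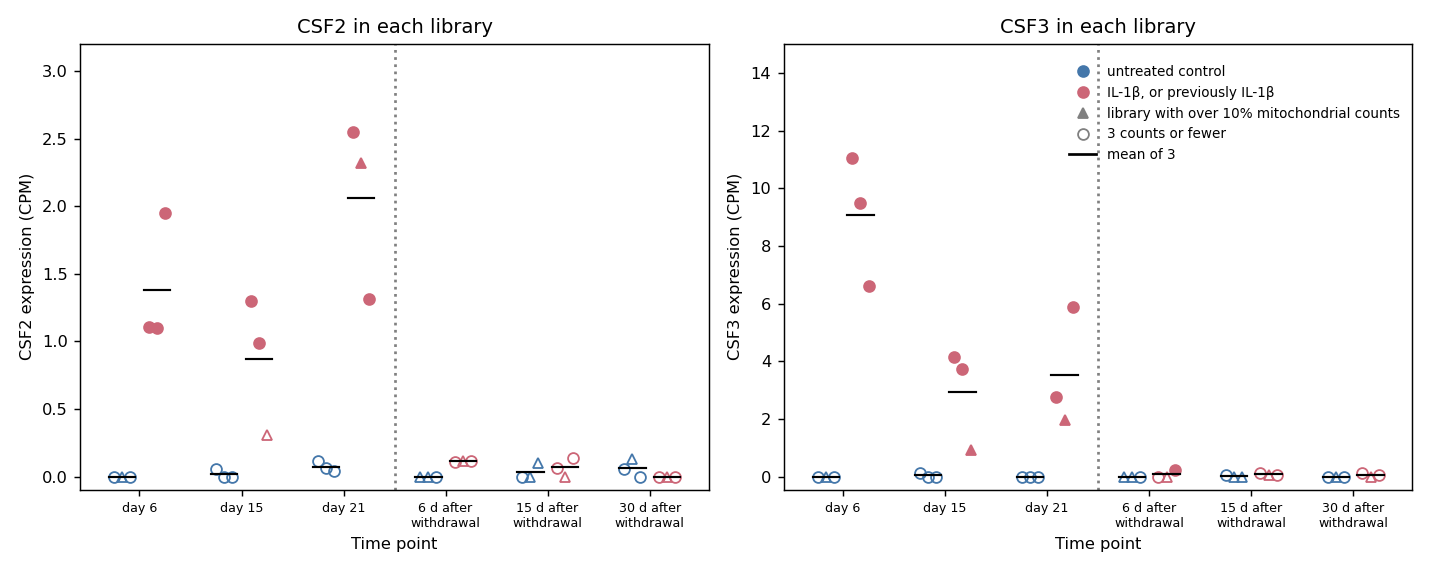
CSF2 (left) and CSF3 (right) in CPM (y axes, linear and of different range) in each library by time point (x axes), with controls in blue, cells with present or past IL-1β in red, and bars for the mean of 3. Open symbols are libraries at 3 counts or fewer, triangles libraries with over 10% mitochondrial counts. Filled red points stand at days 6, 15 and 21, and after withdrawal 1 library, of CSF3 with 4 counts, is above the floor.

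To set the 3 genes against each other, CPM were divided by the kilobases of merged exons. CSF1 was the most abundant in every group. At day 6 of IL-1β its length-scaled level was 62.8 ± 24.9 CPM per kilobase (SD, n = 3), that of CSF3 4.08 ± 1.01 and that of CSF2 1.75 ± 0.622. At day 21 the values were 31.8 ± 8.46 for CSF1, 1.59 ± 0.932 for CSF3 and 2.62 ± 0.836 for CSF2. The ratio of the mean length-scaled levels of CSF3 and CSF2 was thus 2.32, 1.2 and 0.607 at the successive days of exposure. That order was not the same in every replicate. In replicates 1, 2 and 3 the ratio was 3.55, 3.08 and 1.21 at day 6 and 0.385, 0.298 and 1.59 at day 21, so replicate 3 ran the other way. Without it the ratio of the means was 3.31 at day 6 and 0.344 at day 21. With the longest transcript as length it was 3.08 and 0.806. The difference between the days was not tested. Of the summed length-scaled level of the 3 genes, CSF1 made up 90.6% ± 3.81, 93.5% ± 3.37 and 88% ± 2.51 (SD, n = 3) at days 6, 15 and 21 of exposure. In control and withdrawn groups its share was 99.3% or more. Merged exons overstate the length of any CSF1 transcript, and with the longest transcript (3994 bases) its day 21 level was 41.7 CPM per kilobase.

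**Figure D4:**
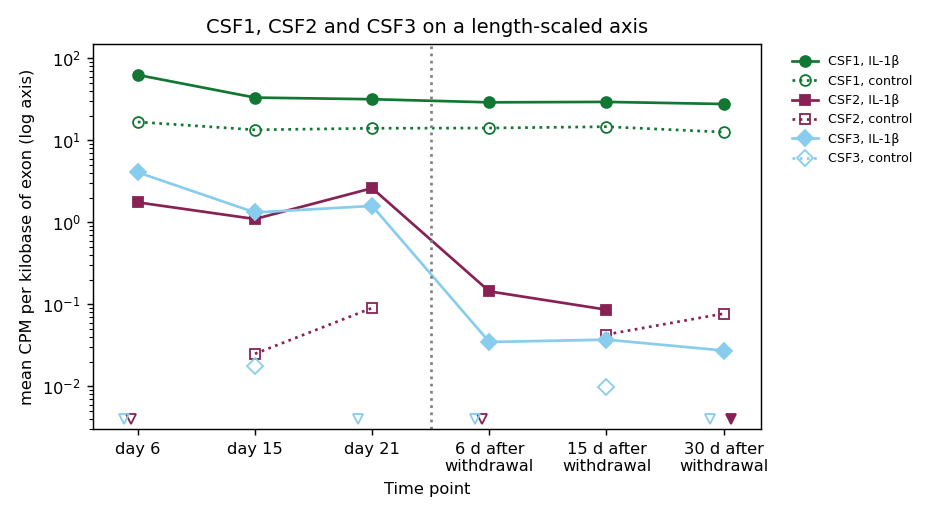
Mean CPM per kilobase of exon (y axis, log scale) of CSF1, CSF2 and CSF3 at the 6 time points (x axis), with filled symbols and solid lines for IL-1β groups and open symbols and dotted lines for controls, 3 libraries each. Triangles at the foot mark groups with 0 counts and have no value on the axis, and symbols below 0.2 rest on 5 or fewer counts. CSF1 stays highest throughout, and the mean of CSF3 stands above that of CSF2 at day 6 and below it at day 21, which replicate 3 taken alone (1.21 and 1.59) does not show.

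The receptors of the 3 factors were barely expressed. CSF1R, the CSF1 receptor of macrophages, had at most 14 counts and was at the floor in 27 of 36 libraries. It reached 0.130 CPM in control and 0.575 CPM in exposed libraries, a difference that was not tested. CSF2RB, the signalling chain of the GM-CSF receptor, had at most 2 counts and was at the floor in all 36. CSF3R had 0 to 13 counts with a median of 5 and was at the floor in 14. CSF2RA, the ligand-binding chain for GM-CSF, was the only receptor to pass the filter, at 3 to 23 counts, and at no time point did it pass the thresholds (log2 fold change 0.07 to 0.56).

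The other genes of the pathway were taken from 6 lists holding 38 genes, 31 of which were tested. All calls among them were higher, and they numbered 3 at each of days 6, 15 and 21 under IL-1β, 1 at day 6 after withdrawal and 0 at the last 2 harvests by edgeR. The shares of all tested genes called higher were 1.52%, 1.94%, 2.19%, 1.08%, 0.594% and 0.433% at the 6 times in turn. DESeq2's Wald test likewise called 0 at those 2, where 7 and 9 genes had an unadjusted edgeR p under 0.05. The median log2 fold change of the 31 genes was 0.14 at day 6 and 0.27 at day 21, against -0.02 and -0.01 over all genes tested. Among 7 other ligands and haematopoietic growth factors, 3 were tested and 0 called by edgeR or by DESeq2, with at most 2 at an unadjusted edgeR p under 0.05 at any time. Among the 3, IL34, the other known ligand of CSF1R, had at most 20 counts. KITLG, the ligand of the receptor KIT, was the best expressed, and its log2 fold changes were 0.54 at day 15 of IL-1β (edgeR adjusted p = 0.0353), 0.78 at day 6 after withdrawal (0.00349) and 0.65 at day 15 after withdrawal (0.0291), all short of the fold threshold. Of the 9 kinases, STATs and feedback inhibitors downstream of the receptors, edgeR and DESeq2 called 0, and 1 or 2 had an unadjusted edgeR p under 0.05 at each time. Among them, JAK1 at day 15 of IL-1β had a log2 fold change of 0.69 (edgeR adjusted p = 0.00644), short of the fold threshold. ADAM17, the protease that releases membrane-bound CSF1, was not called either (log2 fold change -0.09 to 0.54). Its edgeR adjusted p at day 15 of IL-1β was 0.0396, at a log2 fold change of 0.54, short of the fold threshold.

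Of 9 transcription factors known at CSF promoters, JUN and ETS1 were called, against 1.52% of tested genes higher at day 6, and 1.08% at day 6 after withdrawal, when JUN alone was called. When the libraries of high mitochondrial share were omitted, both passed the thresholds again at days 6, 15 and 21. At day 6 after withdrawal that omission left replicate 3 as the only control, and the log2 fold change of JUN was 1.99. JUN, an AP-1 subunit, rose from 15.2 ± 1.33 to 61.3 ± 6.50 CPM at day 6 (n = 3 each, SD), with a log2 fold change of 2.01 (SE 0.32, edgeR adjusted p = 0.000123). It was also called at days 15 and 21 (log2 fold changes 1.40 and 1.98) and, at 49.4 ± 12.6 against 18.2 ± 5.70 CPM, at day 6 after withdrawal (1.45, SE 0.32, edgeR adjusted p = 0.00786), though not there in the separate fit of that time point or without replicate 1 or 2. ETS1, a factor that acts with AP-1 at the CSF2 promoter, rose from 33.5 ± 3.43 to 99.1 ± 10.4 CPM at day 6 (1.56, SE 0.15, edgeR adjusted p = 3.67e-08). It was called at days 15 and 21 as well (1.29 and 1.31), and its log2 fold change was 0.78 (edgeR adjusted p = 0.00165) at day 6 after withdrawal, short of the fold threshold. NFKB1, a subunit of NF-κB, had log2 fold changes of 0.86, 0.73 and 0.68 at days 6, 15 and 21, with edgeR adjusted p of at most 0.000151. It did not reach a fold of 2. RUNX1 also fell short, at 0.43, 0.61 and 0.81 (edgeR adjusted p = 0.231, 0.0263 and 0.00213). RELA and REL are further NF-κB subunits. RELA had 0.23, -0.10 and 0.29 (edgeR adjusted p = 0.821, 0.80 and 0.643). REL had 0.16, 0.98 and 0.63 (edgeR adjusted p = 0.973, 0.0716 and 0.409), and DESeq2's Wald test called it at day 15.

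Of 8 proteins that bind AU-rich or stem-loop elements of cytokine mRNAs, ZC3H12A was called, against backgrounds of 1.52%, 1.94% and 2.19% at days 6, 15 and 21. It passed at these days also when the libraries of high mitochondrial share were omitted (3.74, 3.27 and 3.55 on the log2 scale). ZC3H12A, or Regnase-1, is a ribonuclease that degrades cytokine mRNAs. It rose from 13.4 ± 2.96 to 182 ± 32.2 CPM at day 6 (n = 3 each, SD), with a log2 fold change of 3.76 (SE 0.47, edgeR adjusted p = 3.40e-06), and was called at days 15 and 21 (2.93 and 3.41). At day 6 after withdrawal it was at 11 ± 5.27 against 11.3 ± 5.08 CPM. ZFP36L2, of the tristetraprolin family, had log2 fold changes of -0.85, -0.55 and -0.56 at days 6, 15 and 21 (edgeR adjusted p = 0.000262, 0.0156 and 0.0134). At days 6, 15 and 30 after withdrawal they were -0.40, -0.60 and -0.70 (edgeR adjusted p = 0.195, 0.0282 and 0.00927). All were short of the fold threshold.

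**Figure D5:**
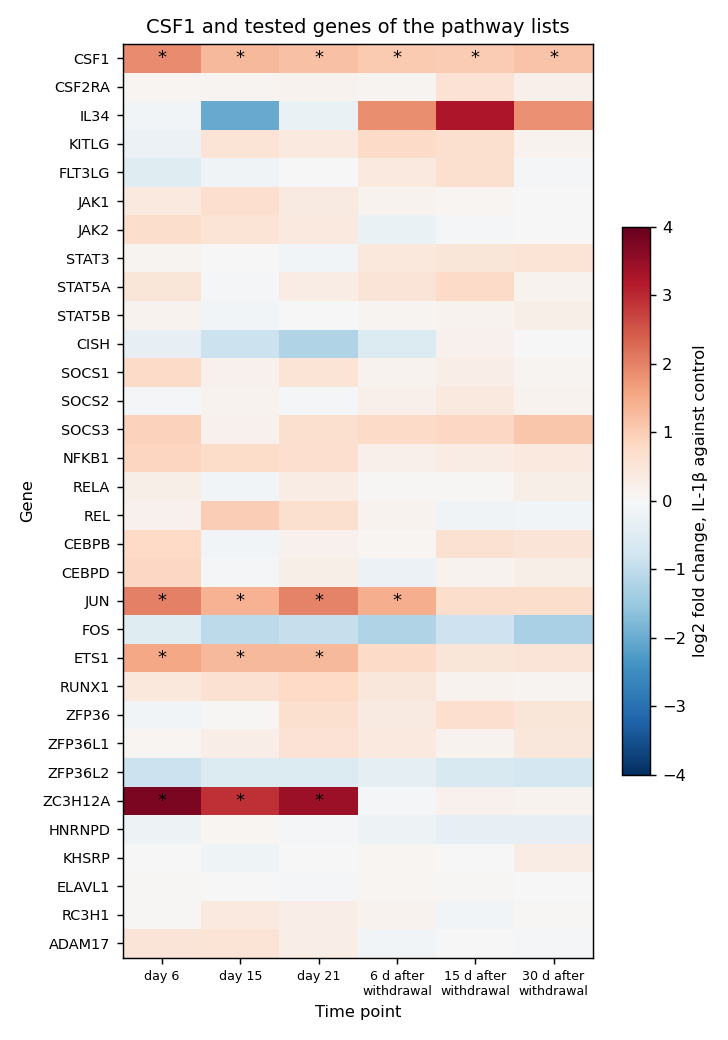
Log2 fold changes, IL-1β against control (colour scale from -4 to 4), of CSF1 and the 31 tested genes of the pathway lists (rows) at the 6 time points (columns), with stars for those past both thresholds. CSF1 has 6 stars, JUN 4, and ETS1 and ZC3H12A 3 each. IL34, which shows strong colours without a star, had 0 to 20 counts.

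Protein-coding genes within 100 kb of the members were also examined. CSF1 had 1 such neighbour, CSF2 had 3, of which 1 was tested, and CSF3 had 8, of which 7 were tested. IL3, a haematopoietic cytokine gene beside CSF2, had 0 counts in every library. The only neighbour called at any time was THRA, a thyroid hormone receptor gene near CSF3, which was lower at day 15 of IL-1β (16.8 ± 2.93 against 41.5 ± 7.67 CPM, SD, n = 3 each, log2 fold change -1.30, SE 0.31, edgeR adjusted p = 0.00708), where 2.30% of tested genes were called lower.

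The genes whose pattern was most like each member were found by Pearson's r of log2 CPM over the 12 group means, as a description over groups whose libraries were scaled together. For CSF1 they were TRANK1 (r = 0.98), SQOR (0.97), SLC37A1 (0.96), IRF1 (0.96) and ENSG00000180672 (0.95). These 5 had log2 fold changes of 0.88 to 2.09 at day 6 and of 0.67 to 0.87 at day 30 after withdrawal. For CSF2 they were TGFBI (r = 0.97), CXCL8 (0.97), TNIP1 (0.96), CXCL3 (0.96) and MIR3142HG (0.96), and for CSF3 they were ZC3H12A (0.99), CXCL3 (0.99), GPX3 (0.99), CXCL5 (0.99) and C6orf58 (0.98). CXCL8 and CXCL3, chemokines that attract neutrophils, had log2 fold changes of 6.91 and 4.16 at day 21 and of -0.97 and 0.02 at day 30 after withdrawal. Among the members themselves r was 0.96 between CSF2 and CSF3, 0.82 between CSF1 and CSF3 and 0.73 between CSF1 and CSF2. CSF2 and CSF3 were at or near the floor in all control and withdrawn groups. Every r with either gene thus rests largely on the IL-1β groups against the rest. Under IL-1β their means peaked at different days, CSF2 at day 21 (2.06 CPM) and CSF3 at day 6 (9.05 CPM). The share of genes with such an r was not counted.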

How the data were processed

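RNA of A549 cells was made into 36 libraries with a stranded mRNA kit, and the deposited values are counts of single-end reads per Ensembl gene, without normalization. The authors aligned the reads to GRCh37 with TopHat2 2.0.14 on Bowtie2 2.2.5 and counted them with HTSeq 0.6.1, after bcl2fastq 2.17, per the labels and the study's methods. The strand setting and annotation release are not given in the sources used here. Reads on no gene (8.48% to 18.6%) and reads ambiguous between genes (2.62% to 4.18%) were left out. No pair of libraries held identical values. Groups came from the labels. The study's design carries cells from exposure on into withdrawal, and whether successive harvests shared a culture is not stated. The fit took all 36 libraries as independent.

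Counts were analysed in R 4.3.3 with DESeq2 1.42.0, limma 3.58.1 and edgeR 4.0.16, and figures were drawn in Python 3.11.15. Genes were filtered by filterByExpr (19180 kept), scaled by TMM, and fitted by edgeR's quasi-likelihood model with the 12 groups as terms and Benjamini-Hochberg adjustment over the genes tested. Calls needed an adjusted p under 0.05 and a log2 fold change beyond 1. Count ratios carry exact conditional 95% intervals. A prior count of 2 was used for log2 CPM. Positions and exon lengths came from GENCODE v44lift37, which matched 55665 identifiers, and the promoter from RefSeq. Of 20 cell type markers, 19 were matched, and 1 of these is not reported here.

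Genes named were the 3 members, their receptors, list genes and neighbours past both thresholds, and the 5 genes most correlated with each member. A few others were chosen after their values were seen (IL34, KITLG, IL3, JAK1, ADAM17, NFKB1, RUNX1, RELA, REL, ZFP36L2). Members and lists were chosen with earlier results of these data known. Contrasts within exposed cells were added after seeing the data, because the planned contrasts of response held groups with 0 counts for CSF2 and CSF3. The ratio of CSF3 to CSF2 by replicate and the omission of libraries for list genes were also added then. The fit was tested on simulated data. These were drawn from the fitted model itself, so that test does not bear on the calls above. Alternatives were other scalings, filters and tests, separate fits, a replicate block, leaving out replicates, and the mitochondrial share as a covariate or a reason to leave libraries out.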

Additional observations from a re-analysis of the deposited data

How the results depend on the processing

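Under IL-1β, the calls of CSF1 at day 6, CSF2 at days 6 and 21 and CSF3 at all 3 days held in all 11 alternatives, and no CSF2 or CSF3 difference from control after withdrawal was called in any. CSF1 after withdrawal was no longer called at day 6 with total counts (log2 fold change 1.13), the separate fit (1.05), without libraries of high mitochondrial share (1.19) and with that share as a covariate (0.97). The same held at day 15 with DESeq2 size factors (0.99), DESeq2's Wald test (0.99), the separate fit (1.02), without those libraries (0.95) and with the covariate (0.94), and at day 30 with total counts (1.21), the separate fit (1.12) and without those libraries (0.97). Leaving out each replicate in turn gave CSF1 log2 fold changes of 1.26 to 1.39 at day 15 and 0.95 to 1.31 at day 21 of IL-1β, and of 0.98 to 1.06, 0.85 to 1.09 and 0.95 to 1.23 at days 6, 15 and 30 after withdrawal. Without replicate 1, 2 or 3 the edgeR adjusted p was 0.554, 0.201 and 0.0109 at day 6 after withdrawal and 0.688, 0.302 and 0.0410 at day 15, where no leave-out kept both thresholds, and 0.520, 0.665 and 0.00326 at day 30, called in the last. With 1 replicate left out, the CSF1 difference of response ranged over -0.26 to 0.025 (day 6 after withdrawal against day 21), -0.30 to 0.28 (day 30 against day 21) and -0.11 to 0.26 (day 30 against day 6 after withdrawal), and exposed cells over -1.54 to -0.69 (day 21 against day 6), -0.29 to 0.085 (day 6 after withdrawal against day 21) and -0.35 to 0.10 (day 30 against day 21). The edgeR adjusted p then ranged over 0.00128 to 0.0507 for CSF2 at day 15, 0.00464 to 0.352 (CSF2) and 0.00992 to 0.301 (CSF3) for day 6 after withdrawal against day 21 in exposed cells, and 0.0281 to 1.00 for CSF3 at day 21 against day 6. Total counts turned the difference of response between day 30 after withdrawal and day 21 to 0.046, and leaving out the high mitochondrial libraries turned that between days 30 and 6 after withdrawal to -0.22. Calls in the pathway lists became 5 at day 21 of IL-1β without those libraries, 0 at day 6 after withdrawal in the separate fit and 1 at day 30 with the covariate, and were 1 to 3 at day 15 of exposure and 0 to 1 at day 6 after withdrawal when a replicate was left out. With the longest transcript as length, CSF1 at day 21 came to 41.7 CPM per kilobase. The cause of these changes was not tested. Total counts moved the median log2 fold change of all genes to 0.21 at day 15 after withdrawal.

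Same-numbered libraries of the groups compared correlated at -0.34 to 0.72 (mean 0.28), with 14 of 18 pairs over 0.1 and 14 best with their own number. Since not every pair was over 0.1 and the labels tie no number to a shared culture, the numbers were not taken as pairs, and the second count is only a hint. With the replicate number as a block no call changed, and CSF1 had log2 fold changes of 1.90 at day 6 of exposure and 1.14 at day 30 after withdrawal. DESeq2's Wald test called the CSF2 contrast of response between day 30 after withdrawal and day 21 (adjusted p 0.0181) and gave no adjusted p for those of day 21 against day 6 and of day 6 after withdrawal against day 21. Fits of single time points gave no value for CSF2 at day 15 of exposure or for CSF2 and CSF3 after withdrawal, where too few counts passed the filter. Without replicate 3, CSF3 had 0 counts in both groups at day 6 after withdrawal and gave no value.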
